A study of Mus musculus with 12 samples.

Results

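The genes of arginine metabolism Arg2, Arg1, Nos2, Nos3, Slc7a2, Slc7a1, Odc1, Ass1, Asl and Oat, 10 in all, were followed in mice lacking both Prkch and Apoe and in mice lacking Apoe alone. The group was chosen by the macrophage values of Arg2, whose difference between genotypes was the largest of all genes there, so the macrophage values of these genes are given as a description, with no test. Every probe set annotated to one of the genes alone was used, which gave 10 probe sets on the array type of the macrophages and livers and 14 on that of the aortas. Of the 10 genes, 9 had such a probe set on both, out of 19938 genes with one on the macrophage and liver array and 12394 on the aorta array. Every Ass1 probe set was shared with another gene symbol, so Ass1, argininosuccinate synthase, has no values here.

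All mice were labelled as C57BL/6J and all lacked Apoe, whose product clears lipoproteins from the blood. Prkch encodes protein kinase C eta, and the Prkch-/-Apoe-/- mice are called knockouts below and the Apoe-/- mice controls. Thioglycolate-elicited peritoneal macrophages, without further stimulation, were taken from female mice kept on a regular diet; each genotype had 3 arrays, from mice of 18, 17 and 27 weeks for replicates 1, 2 and 3. The liver donors were male, aged 20 weeks, had eaten a high-fat diet for 12 weeks and were re-fed before sampling, and each genotype had 2 liver arrays. The aorta donors were fed males of the same age and diet, and each genotype had 1 array of RNA pooled from 4 mice. Which part of Prkch was deleted is not given in the sources used here.

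Arginine is the substrate of 2 competing enzyme classes. Arginases split it into urea and ornithine, from which cells make polyamines or proline, and nitric oxide synthases turn it into nitric oxide and citrulline, which Ass1 and Asl convert back to arginine. In mouse macrophages Arg1 is a well-known marker of the response to interleukin 4 and Nos2 of the response to interferon gamma and bacterial products, while in liver Arg1 closes the urea cycle.

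The brighter Prkch probe set had lower means in knockouts. In macrophages the difference was -0.70 log2 units, at 61.6% of control, with overlapping genotypes. In liver it was -0.92, at 52.7% of control, without overlap (limma, Benjamini-Hochberg adjusted p = 1.00 in macrophages and 0.573 in liver). The dimmer Prkch probe set differed by -0.32 in macrophages and by 0.01 in liver, with overlap in both. In the aorta Prkch read 9.94 in the knockout pool and 17.2 in the control pool, both dim. Exact ties divided the macrophage arrays into 2 processing sets: knockout replicate 1 with control replicates 1 and 2 (set 1), and knockout replicates 2 and 3 with control replicate 3 (set 2). Pairs within set 2 shared 16075 to 18000 identical values among 35557 probe sets, pairs within set 1 shared 53 to 69, and pairs across sets 0 to 3. Within sets 1 and 2 the brighter Prkch probe set differed by -0.54 and -0.49 log2 units. Knockout macrophage replicate 2 stood apart from the other 5 arrays in several genes, among them Hif1a, Slc6a8 and Pparg below, so the differences of the 9 genes in macrophages are also given without it. Macrophage markers were bright on all 6 macrophage arrays, with summed linear levels of 42930 to 48140 in knockouts and 42010 to 45430 in controls, and hepatocyte markers on all 4 liver arrays, at 75840 to 76330 in knockouts and 74790 to 76770 in controls.

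**Figure D1:**
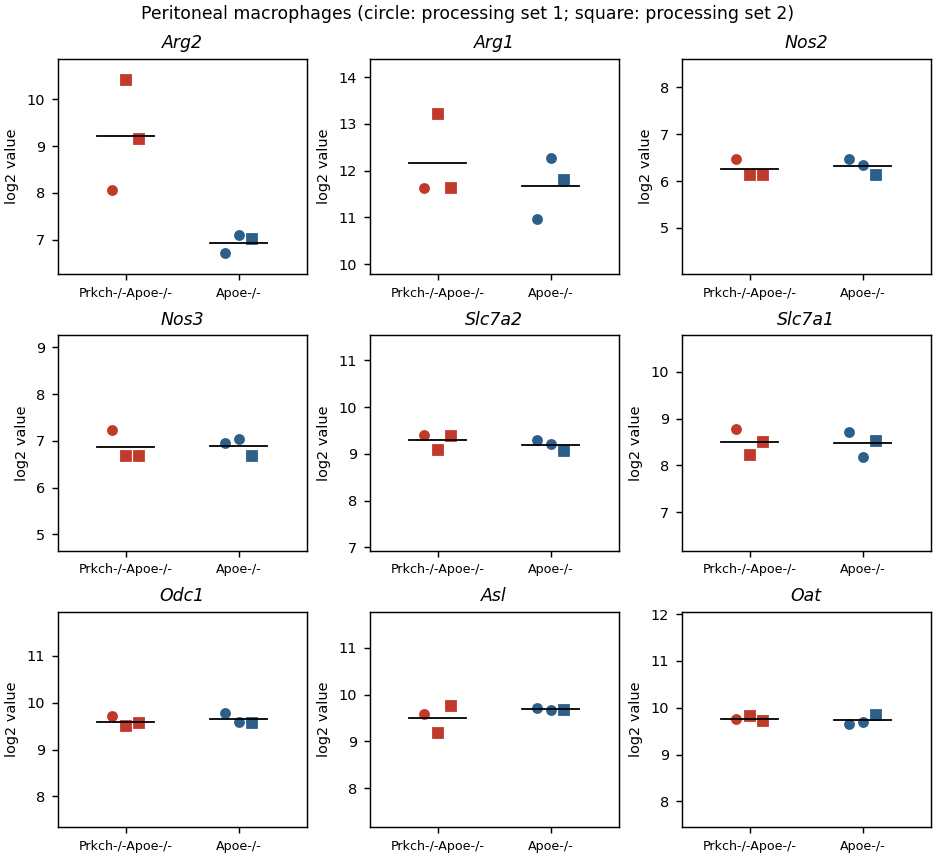
Log2 values of the 9 measured genes in peritoneal macrophages, one point per array, circles for processing set 1 and squares for set 2, lines for group means of 3 arrays; every panel spans the same number of log2 units. Arg2 is the gene whose 3 knockout arrays lie above all 3 control arrays, and Arg1 is the brightest and most variable of the others.

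In macrophages Arg2, the mitochondrial arginase, separated the genotypes without overlap, and the other 8 genes overlapped. On knockout arrays 1, 2 and 3 Arg2 measured 8.06, 10.42 and 9.15 log2 units, and on control arrays 1, 2 and 3 it measured 6.70, 7.10 and 7.01. These values put it at the 69.5, 92.8 and 83.2 percentile of all probe sets on knockout arrays 1, 2 and 3, against the 49.3, 56.7 and 57.0 percentile on the control arrays. It was thus near the middle of the controls' signal and among the brighter transcripts of the knockouts. The knockout mean was 9.21 ± 1.18 log2 units and the control mean 6.94 ± 0.21 (SD, n = 3 each), so the knockouts varied among themselves far more than the controls did. The lowest knockout array still lay 0.97 log2 units above the highest control array. The difference of 2.28 ± 0.54 (SE) ranked 1 of 15039 genes by size. It came to 2.24-fold within set 1 and 6.85-fold within set 2, was 1.97 log2 units with the set as a block, and fell to 1.67 when knockout replicate 2 was left out. Over those and the other alternatives, 13 in all, it ran from 1.17 to 2.85 log2 units. As every knockout array lay above every control array, leaving out an array, splitting by set or blocking could not turn its sign.

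Of the 9 genes, Arg2 alone had no overlap between genotypes, against 2.25% of all macrophage genes, or 0.652% counted as higher in knockouts. No gene of the 9 was called by limma at an adjusted p under 0.05, and neither was any of the 15039 genes (0% called), while 105 genes had an unadjusted p under 0.05. Since these values chose the group, nothing is read from either count. Over the 9 genes the median difference was 0.03 log2 units, with 5 higher and 4 lower, and over all genes it was -0.04, with 36.5% higher. The share of all genes that were higher depended on the sets, which split unequally between genotypes: with the set as a block it was 56.3%, and without knockout replicate 2 it was 47.0%.

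Arg1, the cytosolic arginase, was one of the brightest transcripts of these macrophages. On the log2 scale it read 11.63, 13.22 and 11.63 in knockouts, and 10.96, 12.27 and 11.80 in controls. The high value belonged to knockout replicate 2, and the other knockout arrays lay within the range of the controls. The difference of 0.48 ± 0.51 (SE, n = 3 each) became -0.04 without knockout replicate 2 and was 0.02 within set 1 and 0.62 within set 2. Arg1 therefore did not follow Arg2 on knockout arrays 1 and 3.

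Nos2, the inducible nitric oxide synthase, was dim in these unstimulated cells. It read 6.47, 6.14 and 6.14 log2 units in knockouts and 6.48, 6.34 and 6.14 in controls, and its 3 values in set 2 were identical to every deposited digit, so only set 1 carries any information on it. There the difference was 0.06, and over all arrays without knockout replicate 2 it was -0.02. Nos3, the endothelial isoform, behaved alike, at 7.22, 6.68 and 6.68 in knockouts and 6.95, 7.05 and 6.68 in controls, again with identical values in set 2. Its difference within set 1 was 0.22, over all arrays it was -0.03 ± 0.18 (SE), and without knockout replicate 2 it was 0.06.

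The 2 cationic amino acid transporters that bring arginine into the cell differed little. Slc7a2, which encodes CAT-2, read 9.41, 9.09 and 9.38 in knockouts and 9.29, 9.20 and 9.06 in controls. The genotypes overlapped, and the difference was 0.11 ± 0.12 (SE, n = 3 each), with 0.16 and 0.17 within sets 1 and 2 and 0.21 without knockout replicate 2. Slc7a1, which encodes CAT-1, had a difference of 0.03 ± 0.18, with 0.32 and -0.16 within the sets and 0.16 without knockout replicate 2.

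Enzymes that use ornithine or recycle citrulline were likewise close between genotypes in macrophages. Odc1, ornithine decarboxylase, the first enzyme of polyamine synthesis, differed by -0.04 ± 0.10 (SE) on its brighter probe set and by -0.13 on its dimmer one. Oat, ornithine aminotransferase, which leads ornithine towards proline and glutamate, differed by 0.03 ± 0.09. Without knockout replicate 2 the brighter Odc1 probe set differed by -0.0020 and Oat by 0.0012. Asl, argininosuccinate lyase, which releases arginine, read 9.59, 9.18 and 9.76 in knockouts and 9.70, 9.68 and 9.67 in controls. Its low value was again that of knockout replicate 2, and its difference of -0.18 ± 0.15 became -0.01 without that array. Arg1, Nos2, Nos3, Slc7a1, Odc1 and Oat changed sign under at least 1 of the 13 alternatives. Slc7a2 and Asl did under none, and neither did Arg2, whose lack of overlap largely fixed its sign beforehand.

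Markers of other cells also moved with knockout replicate 2, where Arg2 was highest. The 5 measured B cell genes of 6 listed summed to 664.4, 3929 and 813.5 linear units in knockouts 1, 2 and 3, against 1616, 723.5 and 915.5 in controls, and all 5 had higher means in knockouts. Of the 5 mast cell genes, 1 had a higher mean in knockouts and 4 a lower one. They summed to 541, 1681 and 572.5 in knockouts and to 847.6 to 909 in controls, and this sum too was highest on knockout array 2. Fibroblast and mesothelial genes were lowest there: the 5 fibroblast genes summed to 2836, 732.6 and 1308 in knockouts and to 3126, 1568 and 2495 in controls, and the 5 mesothelial genes to 597.1, 409.2 and 473.5 in knockouts and to 716, 570.4 and 614.5 in controls. On knockout array 3 both of these lists were also below every control array. The part of any of these markers in the Arg2 values was not tested. In such bulk samples, a smaller number of cells of one type and less RNA per cell cannot be told apart.

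Among genes that ranged over at least 1 log2 unit across the 6 macrophage arrays (793 beside Arg2), those whose values moved most like Arg2 once each set's mean was removed were Scd2, a stearoyl-CoA desaturase (Pearson r = 0.96), Ccr2, the receptor of monocyte chemokines (0.94), Fn1, fibronectin (0.92), Cd244a, a receptor of the SLAM family (0.92), and Pilrb2 (0.90). These are correlations across 6 arrays that share processing sets and, at their high end, knockout replicate 2, and they are given as a description. Without removing the set means r was 0.34 for Scd2, 0.89 for Ccr2, 0.61 for Fn1, 0.80 for Cd244a and 0.59 for Pilrb2. Fn1 read 13.58, 14.17 and 12.92 log2 units in knockouts and 13.24, 13.32 and 12.38 in controls, so unlike Arg2 it overlapped between genotypes. Scd2, Cd244a and Pilrb2 overlapped too. Ccr2 did not, at 10.34, 10.96 and 10.17 in knockouts and 9.95, 10.05 and 9.85 in controls. As these genes were picked for their likeness to Arg2, nothing is read from that.

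The genes most like Arg1 by the same measure were Nfil3, a transcription factor (r = 0.99), S100a9, a subunit of the neutrophil protein calprotectin (0.98), Gpat3, a glycerol-3-phosphate acyltransferase (0.98), the chemokine receptor Ccr1 (0.98), and Il1f9, which encodes interleukin 36 gamma (0.97). S100a9 read 6.62, 8.08 and 6.07 in knockouts and 6.27, 7.75 and 6.19 in controls, high on the same 2 arrays as Arg1, replicate 2 of each genotype, both from mice of 17 weeks. The neutrophil genes summed to 431.2 to 819.1 linear units in knockouts and 412.1 to 1143 in controls, and they did not move as one. On knockout replicate 2, S100a8 at 8.19 and Ly6g at 5.25 were at their highest, and Camp at 5.98 and Ltf at 5.40 at their lowest. Retnlg read 6.84 there and 8.95 on control replicate 2. The part of neutrophil genes in the Arg1 values was not tested. For Nos2 the closest were Bhmt2 (0.99), Rnd3 (0.97), Hpgd (0.94), Nfkbid (0.91) and Parva (0.88), but with its values tied in set 2 these rest on the 3 arrays of set 1, and before the set means were removed r was -0.69 for both Rnd3 and Hpgd. Between members, Arg2 and Arg1 had r = 0.60, Arg2 and Asl r = -0.70 and Arg1 and Asl r = -0.81 over the same 6 arrays.

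**Figure D2:**
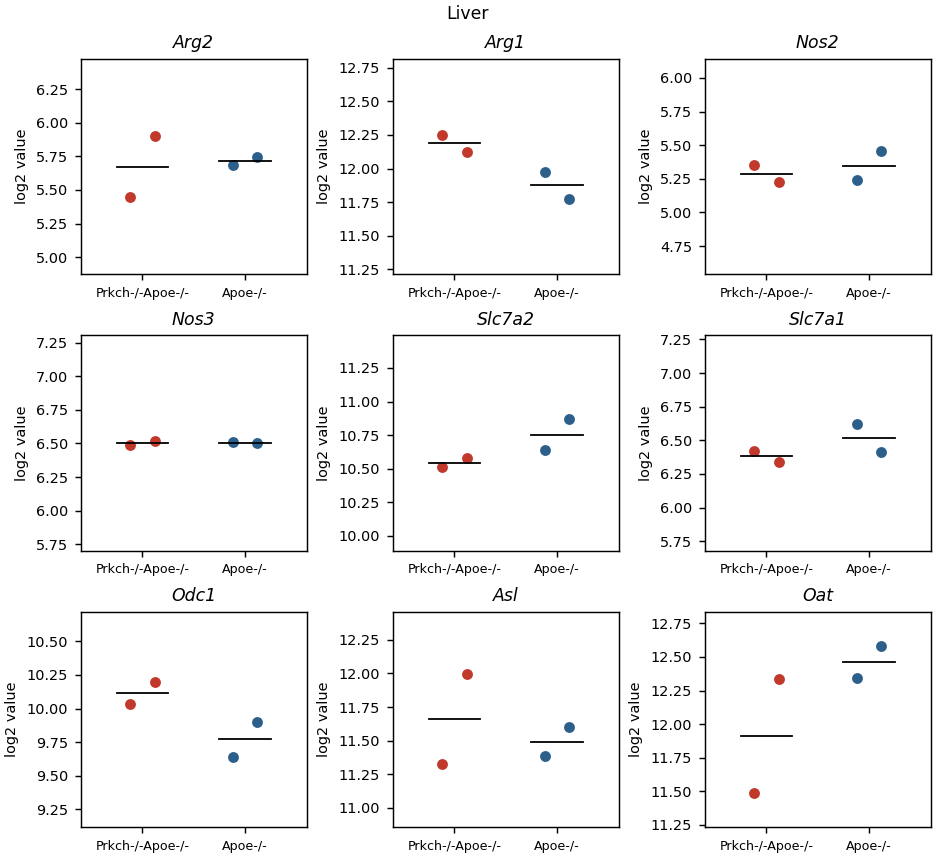
Log2 values of the 9 measured genes in liver, one point per array, with lines for group means of 2 arrays; every panel spans the same number of log2 units. Arg1 and Odc1 lie higher and Slc7a2 and Oat lower on both knockout arrays than on both control arrays, and Arg2 overlaps.

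In liver, whose values took no part in choosing the genes, none of the 9 genes passed the threshold (limma over 15942 genes, Benjamini-Hochberg adjusted p = 1.00 for each). Called genes were rare there, 1 of 15942, or 0.00627%, while 684 genes had an unadjusted p under 0.05. Of the 9 genes, 4 had no overlap between genotypes, Arg1 and Odc1 higher and Slc7a2 and Oat lower, against 29.8% of all liver genes. Their median difference was -0.04 log2 units, with 3 higher and 6 lower, against -0.02 over all genes, with 42.8% higher.

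Arg2 overlapped between the genotypes in liver. It read 5.44 and 5.90 log2 units in knockouts and 5.69 and 5.74 in controls. The control values lay between the 2 knockout values, and the difference was -0.04 ± 0.17 (SE, n = 2 each). Whether the macrophage and liver differences differ was not tested, and tissue, sex, diet and age changed together between them.

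Arg1, at the 98.5 percentile or above in control livers, read 12.25 and 12.12 log2 units in knockouts and 11.98 and 11.78 in controls. Both knockout values were higher, by 0.31 ± 0.14 (SE, n = 2 each) or 1.24-fold on average (limma, adjusted p = 1.00), and by 0.21 to 0.41 when 1 array was left out. Odc1 read 10.03 and 10.20 in knockouts and 9.64 and 9.90 in controls, a difference of 0.34 ± 0.15 or 1.27-fold (limma, adjusted p = 1.00), which came to 0.21 when control replicate 1 was left out and 0.47 when control replicate 2 was. Its second probe set read 9.14 and 9.51 in knockouts and 8.92 and 9.29 in controls, higher by 0.22 with overlapping genotypes. Asl read 11.32 and 11.99 in knockouts and 11.38 and 11.60 in controls, so the spread between the knockout livers was larger than the difference of 0.17 ± 0.22.

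Oat had the largest difference of the 9 genes in liver, and ranked 213 of 15942 by size. It read 11.49 and 12.33 log2 units in knockouts and 12.34 and 12.58 in controls. Knockout replicate 1 was low, while knockout replicate 2 lay only 0.0078 log2 units below the lower control. The difference of -0.55 ± 0.25 (SE, n = 2 each), or 68.4% of control (limma, adjusted p = 1.00, and 0.123 at the lowest over the alternatives), was -0.13 without knockout replicate 1 and -0.97 without knockout replicate 2.

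The transporter Slc7a2 read 10.51 and 10.58 in knockout livers and 10.64 and 10.87 in control livers, a difference of -0.21 ± 0.14 (limma, adjusted p = 1.00), and Slc7a1 differed by -0.13 ± 0.14 with overlapping values. Without control replicate 1 they were -0.33 for Slc7a2 and -0.03 for Slc7a1, and without control replicate 2 they were -0.09 for Slc7a2 and -0.24 for Slc7a1. Nos2 differed by -0.06 ± 0.14 and Nos3 by 0.00 ± 0.13, and both synthases varied little across the 4 livers, Nos3 between 6.49 and 6.52. The 6 macrophage markers were all lower in knockout livers, with sums of 2896 to 3440 linear units against 3962 to 5302 in control livers. Their part in the liver values of these genes was not tested.

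**Figure D3:**
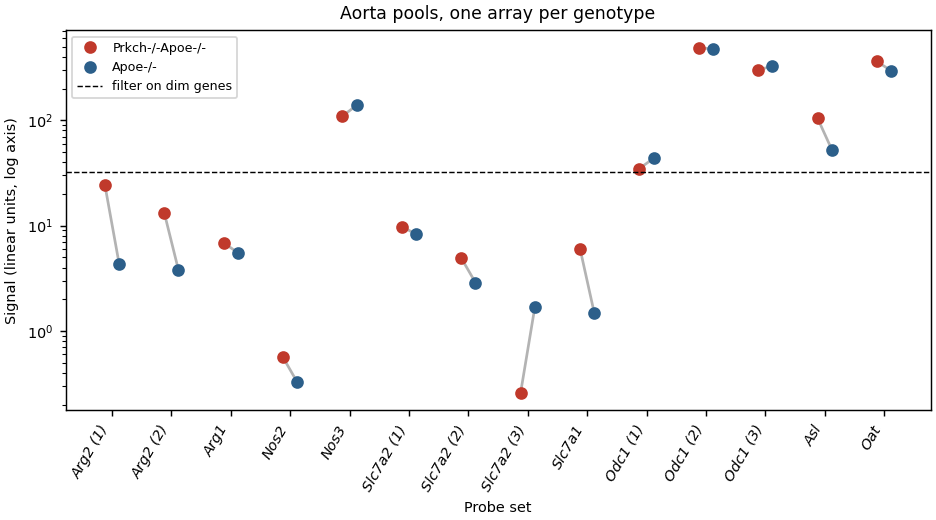
Signal of the 14 probe sets of the 9 measured genes in the aorta, on a log axis in linear units, with the knockout pool left and the control pool right in each pair; the dashed line is the filter on dim genes. Both Arg2 probe sets are higher in the knockout pool and lie below the line, and Asl is the member above the line with the widest gap.

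The aorta arrays, 1 pool of each genotype, give values without a replicate check. The 2 Arg2 probe sets read 24.5 and 13.3 in the knockout pool, against 4.37 and 3.79 in the control pool. Both were higher in the knockout pool, and both lay in each pool under the filter on dim genes, a signal of 32.6, so no size of change is read from them. On the log2(signal + 16) scale, which shrinks differences at low signal, theirs were 0.99 and 0.57, and that of the brighter probe set ran from 0.37 with 64 added to 2.25 with 1 added.

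Above the filter were 4 of the 9 genes, and none reached a 2-fold difference on that scale, against 1.27% of 7098 aorta genes. Asl came nearest, at 104.2 in the knockout pool and 52.5 in the control pool, a difference of 0.81. Oat read 361.6 in the knockout pool and 293.8 in the control pool, a difference of 0.29. The brightest Odc1 probe set read 489.7 in the knockout pool and 472.9 in the control pool, and the other Odc1 probe sets were lower in the knockout pool, at 301.7 against 324.6 and 34.8 against 43.6. Nos3, the isoform of the vessel lining, was the other gene above the filter and was lower, at 109 in the knockout pool and 139 in the control pool, a difference of -0.30.

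The remaining genes were at the bottom of the aorta's signal range in both pools. Arg1 read 6.88 in the knockout pool and 5.53 in the control pool, Nos2 read 0.563 in the knockout pool and 0.327 in the control pool, and Slc7a1 read 6.06 in the knockout pool and 1.48 in the control pool. The 3 Slc7a2 probe sets disagreed in direction, with 9.77, 4.94 and 0.260 in the knockout pool against 8.33, 2.88 and 1.69 in the control pool.

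Marker lists of several cell types differed between the pools. The 5 B cell genes, all higher in the knockout pool, summed to 658.5 there and 100.5 in the control pool, and the 5 T cell genes to 157.1 in the knockout pool and 28.65 in the control pool. Of these, Cd79a, Pax5, Blk, Cd3e, Cd4 and Cd8a lay under the filter on dim genes in both pools. Ms4a1, at 452.6 in the knockout pool and 49.9 in the control pool, made up most of the knockout B cell sum. The 6 macrophage genes summed to 3867 in the knockout pool and 3588 in the control pool. The 6 endothelial genes, which bear on Nos3, were all lower in the knockout pool and summed to 1128, against 1421 in the control pool, and the 5 skeletal muscle genes summed to 4471 in the knockout pool and 7056 in the control pool. The part of these cells in the aortic values of Arg2, Asl and Nos3 was not tested.

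**Figure D4:**
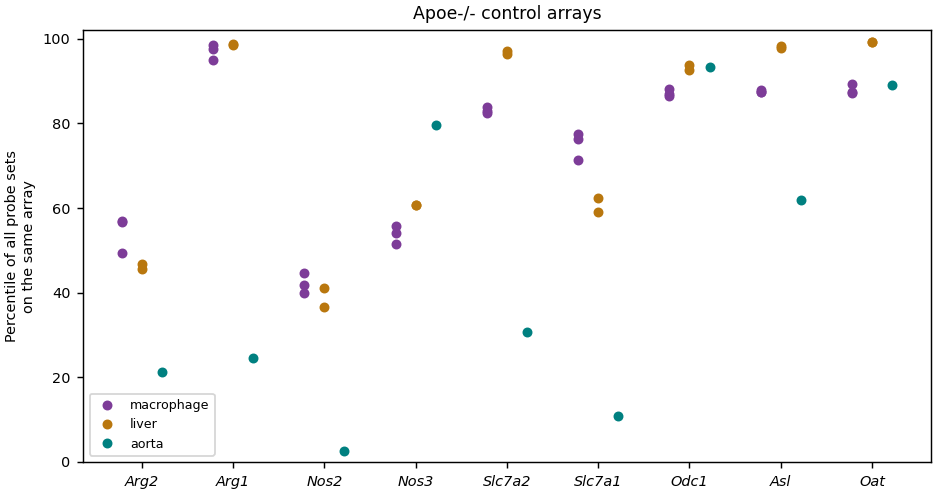
Percentile of each gene's brightest probe set among all probe sets of the same array in Apoe-/- control samples, one point per array (3 macrophage, 2 liver, 1 aorta). Arg1 is near the top in macrophages and liver and low in the aorta, and Nos2 is low in all 3 tissues.

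In control animals the genes kept distinct tissue patterns, read as the percentile of a probe set among all those of its array because array medians differed, 6.57 to 6.77 in macrophages and 5.88 to 5.93 in liver, and no source used here says whether the tissues were normalized together. In macrophages Arg1 was highest, at percentiles 95.0 to 98.5. Oat (87.1 to 89.2), Asl (87.3 to 87.9) and Odc1 (86.5 to 88.2) came next and overlapped one another. They were followed without overlap by Slc7a2 (82.4 to 83.8) and Slc7a1 (71.4 to 77.4). Arg2 (49.3 to 57.0) and Nos3 (51.5 to 55.8) overlapped, and Nos2 was lowest, at 40.0 to 44.7. These percentiles order probe sets of unequal response, so neighbours in that order are no measure of transcript numbers.

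In control livers Oat was highest (99.2 to 99.3), with Arg1 (98.5 to 98.7), Asl (97.9 to 98.2), Slc7a2 (96.3 to 97.0) and Odc1 (92.6 to 93.8) below it in that order, none overlapping its neighbour. Slc7a1 (59.1 to 62.4) and Nos3 (60.6) overlapped, and Arg2 (45.6 to 46.8) and Nos2 (36.5 to 41.0) were lowest. Arg2 and Slc7a1 thus stood higher in every control macrophage array than in either control liver, and Slc7a2, Odc1, Asl and Oat stood higher in both livers. Arg1 and Nos2 overlapped between these tissues. Nos3 stood higher in liver by percentile, but by deposited log2 values it was 0.39 higher in macrophages. In the control aorta pool, on another array type, Odc1 (93.2), Oat (89.0), Nos3 (79.7) and Asl (62.0) led, and Slc7a2 (30.8), Arg1 (24.6), Arg2 (21.2), Slc7a1 (10.9) and Nos2 (2.6) were low. Tissue, sex, diet and age differed together between these samples and cannot be told apart.

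**Figure D5:**
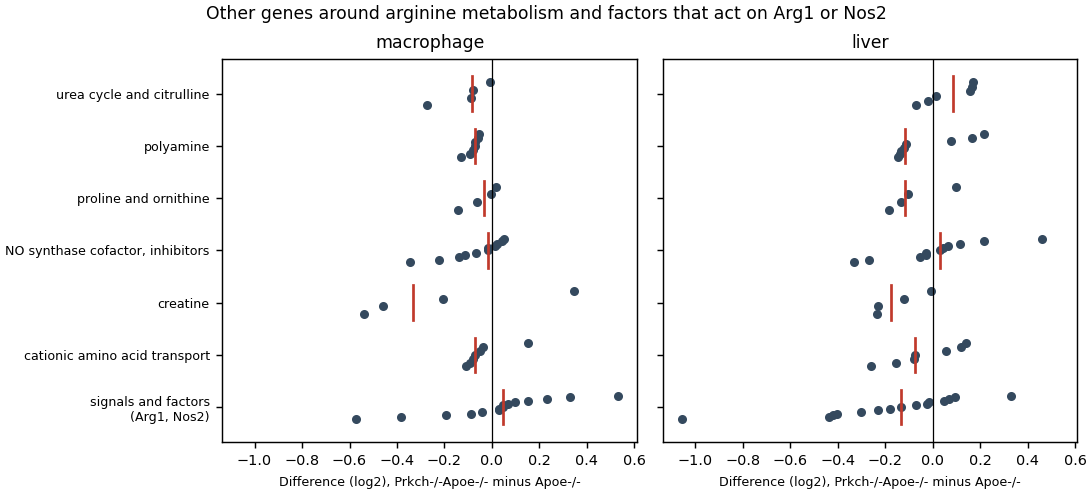
Difference in log2 units, knockouts minus controls, of 52 other genes in macrophages (left) and 55 in liver (right), drawn from 6 lists around arginine metabolism and 1 of signals and factors that act on Arg1 or Nos2, one point per gene, with red lines for the median of each list. Macrophage differences are plain means that take no account of the processing sets, and the largest single difference is Pparg in liver, at -1.06.

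Another 64 genes were read beside the 9, in 6 lists around arginine metabolism and 1 of signals and factors that act on Arg1 or Nos2. In liver 55 passed the filter, 21 higher and 34 lower in knockouts, against 42.8% higher over all liver genes. None was called, and 26 were free of overlap, where 29.8% of all liver genes were. In the aorta 37 passed, 20 higher and 17 lower, none by 2-fold, against 1.27% of all aorta genes. In macrophages 52 passed, 17 higher and 35 lower, where 36.5% of all genes were higher, with none called and none free of overlap, against 2.25% of all genes. With the processing set as a block, added after seeing the data, 25 were higher and 27 lower, and without knockout replicate 2 the split was 24 and 28. Of the 52, 12 kept one sign over all arrays, within each set, with the block and without that array, against 3371 of all 15039 macrophage genes. A difference of 0 within set 2, which leaves no sign to keep, was found for 15 of the 52 and for 6192 of all genes.

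The 7 measured polyamine genes all had lower plain means in knockout macrophages. With the processing set as a block 6 were lower and 1 higher, and within set 1 it was 4 lower and 3 higher. Srm, spermidine synthase, differed by -0.13 over all arrays and by -0.02 with the block. Azin1, which protects ornithine decarboxylase from its antizymes, read 11.72, 10.89 and 11.45 in knockouts and 11.38, 11.46 and 11.51 in controls, a difference of -0.09 that became 0.14 without knockout replicate 2. In liver 3 of the 8 were higher and 5 lower. Azin1 read 9.95 and 9.96 in knockout livers and 9.71 and 9.77 in control livers, a difference of 0.22 in the same direction as Odc1 (limma, adjusted p = 1.00).

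The urea cycle genes beside Arg1 were higher in 4 of 6 cases in liver, with a median difference of 0.09. Otc, ornithine transcarbamylase, read 10.88 and 10.70 in knockouts and 10.59 and 10.66 in controls. Cps1, carbamoyl phosphate synthetase, read 13.39 and 13.60 in knockouts and 13.31 and 13.36 in controls. Both were free of overlap, as were 29.8% of all liver genes, and both had an adjusted p of 1.00 (limma). The rest of the 6 overlapped, and Slc25a13 and Slc25a2 were lower. Of the 4 kept in macrophages, all had lower plain means, and with the processing set as a block 2 were higher and 2 lower. Slc25a13, the mitochondrial aspartate carrier, had the largest difference there, -0.27. Its low value, 8.72, was knockout replicate 2, against 9.76 to 9.96 on the other 5 arrays, and without that array the difference was 0.13.

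Knockout replicate 2 also set the differences of Slc6a8, Ckb and Gatm in the creatine list in macrophages, creatine synthesis being another use of arginine. Slc6a8, the creatine transporter, read 10.66, 8.76 and 10.45 in knockouts and 10.52, 10.51 and 10.45 in controls. Ckb, brain-type creatine kinase, read 11.33, 8.96 and 11.42 in knockouts and 10.97, 11.07 and 11.05 in controls. Gatm, which makes the creatine precursor from arginine and releases ornithine, read 9.66, 10.61 and 9.31 in knockouts and 9.61, 9.63 and 9.30 in controls. In each the difference of the means, -0.54, -0.46 and 0.34, came with 2 knockout arrays close to or above the controls and 1 far from them. Gamt, also in this list, differed by -0.20 both over all arrays and without knockout replicate 2. Within set 1 it differed by -0.28.

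Of the genes for nitric oxide synthase cofactors and inhibitors, 6 were higher and 5 lower in liver, and in macrophages, with the processing set as a block, 5 were higher and 6 lower. Ddah1, which degrades methylated arginine inhibitors of the synthases, read 10.26 and 10.33 in knockout livers and 10.62 and 10.50 in control livers. Gch1, the first enzyme of tetrahydrobiopterin synthesis, read 8.88 and 8.43 in knockout livers and 9.12 and 8.86 in control livers, overlapping. Of the 7 other cationic amino acid transport genes, 3 were higher and 4 lower in macrophages with the block, against 1 higher and 6 lower by plain means. Slc7a6, a transporter of cationic and neutral amino acids, was the 1 that kept its sign throughout, at 0.15 over all arrays and 0.11 with the block. Of the 4 proline and ornithine genes 3 were higher with the block and 1 by plain means. In the aorta Prodh, proline dehydrogenase, read 101 in the knockout pool and 51.9 in the control pool.

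Among signals and factors that act on Arg1 or Nos2, 10 were higher and 5 lower in macrophages, also with the processing set as a block, but 6 higher and 9 lower without knockout replicate 2. In liver 4 were higher and 11 lower. Hif1a, a factor known to act on Nos2 and Arg1 under low oxygen, read 10.73, 12.06 and 10.63 in knockout macrophages and 10.66, 10.80 and 10.38 in controls. Pparg, a nuclear receptor that raises Arg1 in mouse macrophages, read 10.15, 8.59 and 10.06 in knockout macrophages and 10.37, 10.25 and 9.92 in controls. The part of Hif1a or Pparg in the Arg1 values was not tested. In liver Pparg read 7.10 and 7.38 in knockouts and 8.67 and 7.92 in controls, a difference of -1.06 ± 0.24 (SE, n = 2 each) without overlap (limma, adjusted p = 0.727). Irf8, a factor of macrophages and other myeloid and B cells, read 7.02 and 7.14 in knockout livers and 7.35 and 7.65 in control livers, lower along with the macrophage markers, while in the aorta it read 117 in the knockout pool and 71.3 in the control pool.

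Arg2, Odc1 and the deleted gene Prkch lie on chromosome 12 by the RefSeq gene table of the assembly GRCm38.p6, with 38 protein-coding genes between Prkch and Arg2. The build behind the probe annotation is not given in the sources used here, so only gene order is used. Of those 38 genes, 28 passed the macrophage filter, 12 higher and 16 lower in knockouts, none called, with 2 free of overlap, both lower, against 2.25% of all macrophage genes. Of the next 38 genes beyond Arg2, 29 passed, 15 higher and 14 lower, with 2 free of overlap, both higher. With the processing set as a block 17 of the 28 and 17 of the 29 were higher, against 56.3% of all genes. The median size of difference was 0.09 between the genes and 0.12 beyond, against 0.08 over all macrophage genes. The largest among these neighbours were Actn1 (-0.55), Hif1a (0.53), Rdh12 (0.48) and Atp6v1d (-0.47). Actn1, Hif1a and Rdh12 were far from the other arrays on knockout replicate 2. Without that array their differences were 0.28, 0.07 and 0.17, and that of Atp6v1d was -0.28. In liver 16 of 29 genes between Prkch and Arg2 were higher and 13 lower, with 6 higher and 2 lower free of overlap, and of 29 beyond it 10 were higher and 19 lower, with 3 higher and 4 lower free of overlap. None was called, and 29.8% of all liver genes were free of overlap.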

How the data were processed

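Per the submitters' processing notes the authors used Affymetrix Expression Console, with no version or algorithm stated. The deposited values of macrophages and liver are log2 probe set summaries, and the deposited aorta values are linear intensity scaled by the authors, both judged from their ranges. No normalization was repeated. Gene symbols were those of GEO's platform annotation: of 35557 on the macrophage and liver array 21789 had 1 symbol, 1621 several and 12147 none listed, and of 22690 on the aorta array 20393, 691 and 1606. Genes were represented by the probe set with the highest mean and kept above the 30th percentile of all probe sets (5.74 in macrophages, 4.87 in liver), and in the aorta where the brighter array reached the median. Array medians were 6.57 to 6.77 in macrophages, 5.88 to 5.93 in liver, and 30.1 (knockout) and 27.8 (control) in the aorta.

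With limma 3.58.1 (R 4.3.3), macrophages and liver were each fitted alone as knockouts over controls, with Benjamini-Hochberg adjustment over all genes and a threshold of 0.05. The fit was run on simulated data with planted differences, equal noise in every gene and no processing sets, a simpler setting than these arrays. The aorta was read as log2(signal + 16). The number of arrays limits the precision, and the labels call them biological replicates without naming animals, so p-values measure the spread between these samples. The members and lists were chosen with earlier results of these data known. All members were named, with the 5 genes most like Arg2, Arg1 and Nos2, up to 3 genes of each pathway list and up to 4 neighbours on chromosome 12 by size of difference. Counts of the lists and of chromosome 12 neighbours within processing sets, with the set as a block and without knockout macrophage replicate 2 were added after seeing the data. Marker sums are of linear values over each list. The main fits did not use the replicate number, although same-numbered macrophage arrays of the genotypes came from mice of the same age. Same-numbered macrophage arrays deviated together with r = 0.40, 0.03 and 0.50 for replicates 1, 2 and 3, and differently numbered ones with r from -0.46 to 0.19. Replicates 1 of both genotypes were in processing set 1 and replicates 3 in set 2, while replicate 2 was split between the sets. Shared age and shared processing set therefore cannot be told apart in these r values or in the replicate block. With the replicate number as a block, the SE of the macrophage difference was 0.37 rather than 0.54 for Arg2. For Arg1 it was 0.22 rather than 0.51.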

Additional observations from a re-analysis of the deposited data

Results flagged for a closer look

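The dimmer Odc1 probe set (10582295) had differences of opposite sign in the tissues. All 3 knockout macrophage arrays lay below the control mean, reading 8.97, 8.96 and 9.06 in knockouts and 9.20, 9.11 and 9.06 in controls on the log2 scale, a difference of -0.13. Knockout replicate 3 equalled control replicate 3, a tie within processing set 2, where the difference was -0.05. Both knockout livers lay above their control mean of 9.10, at 9.14 and 9.51, with overlapping genotypes and a difference of means of 0.22. The difference between the tissues was not tested, and sex, diet and age differ with the tissue. The brighter Odc1 probe set had differences of -0.04 in macrophages and 0.34 in liver.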

How the results depend on the processing

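The number of macrophage genes called was 0 under all 12 alternatives. The Arg2 difference in macrophages was 1.17 within processing set 1, and leaving out 1 array gave 1.67 to 2.85. It was 2.28 with the label's replicate number as a block (replicate block), which leaves a balanced difference unchanged. The liver count of 1 called gene was 23 with the replicate block, which is not a design given by the labels, and 0 with quantile normalization, a trended prior or no filter, and leaving out 1 array gave 0 to 36 (36 without knockout replicate 2, 0 without any other). Liver differences near 0 turned sign without 1 array: Arg2 ran from -0.27 to 0.19, Nos2 from -0.17 to 0.048, Nos3 from -0.015 to 0.010 and Asl from -0.17 to 0.50, and Nos3 was 0.0091 with quantile normalization. Over the 52 genes of the macrophage lists, 17 were higher by plain means and 25 with the processing set as a block, chosen after seeing the data. The 90 aorta genes past 2-fold were 169 with log2(signal + 1) and 37 with log2(signal + 64). The brightest Odc1 probe set in the aorta, 0.05, became -0.06 with both arrays at the same median. The causes were not tested.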
